A study of Mus musculus with 7 samples.

Results

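The C2C12 m6A list deposited for this study holds 5433 peaks, and 675 of them (12.4%, 95% Wilson interval 11.6 to 13.3) were annotated by the authors to an intron. These 675 intron peaks, chosen by their annotation alone, fell in 505 of the 3970 genes of the list. Ahnak held 18 of them, and results are given with it and, where stated, for the other 657 peaks. C2C12 is a mouse myoblast line that divides in serum-rich medium and fuses into myotubes when serum is withdrawn. The study asked how the m6A methyltransferase METTL3 acts in muscle stem cells and regeneration, and used MeRIP-Seq, in which fragmented poly(A) RNA is captured with an antibody against m6A and sequenced beside its input. For C2C12, 2 immunoprecipitate (IP) libraries and 1 input library were made. Their sample labels give the genotype Normal for the input and Knockout for both IP libraries, while the methods name no knockdown for this experiment, and the labels do not state whether the cells were growing or had been differentiated in horse serum. The series also holds 1 IP and 1 input library each from tamoxifen-treated Pax7CreERT2; METTL3 flox/flox (cKO) and Pax7CreERT2; METTL3 wt/wt (CTL) C57BL/6 mice, made at day 2 after cardiotoxin (CTX) injection. In that model the Cre acts in Pax7-expressing cells. The RNA source of these libraries is labelled muscle and the cell type muscle stem cell.

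N6-methyladenosine is added to RNA during transcription by a complex built around METTL3 and METTL14, so unspliced RNA can carry the mark before its introns are removed. In mature mRNA the mark is known to gather in long internal exons, around the stop codon and in the 3'UTR. Poly(A) selection enriches spliced mRNA, and the class of a peak depends on the transcript it is annotated to, since bases that are intron in one transcript can be exon in another.

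The list gives each peak a position, a class, 1 RefSeq transcript and a distance from the start of that transcript, and no enrichment, read count or p-value. The replicate spread and the depth behind each peak are therefore unknown. Intervals below are 95% intervals that cover counting error only. Peaks of 1 gene share their source, which these intervals do not take into account. Of the myoblast markers, Myod1, Des and Cdh15 had a listed peak and Myf5 and Myog had none, which describes the list and not expression.

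Most genes with an intron peak had no peak of another class. Of the 505 genes, 348 (68.9%, 64.7 to 72.8) had intron peaks only, and 157 (31.1%, 27.2 to 35.3) had peaks of other classes too. A single class was also common elsewhere in the list. Of the 3465 genes without an intron peak, 2654 had only 1 listed peak. A single intron peak was listed for 426 genes, 44 genes had 2, and 35 genes had 3 or more. Those 35 genes held 161 of the 675 intron peaks (23.9%). Noncoding RefSeq transcripts made up 34 of the 348 genes with intron peaks only (9.77%, 7.08 to 13.3) and 102 of the 3465 genes without an intron peak (2.94%, 2.43 to 3.56). In the 157 genes with both kinds of peak, 20 of 200 intron peaks (10%, 6.57 to 14.9) had their centre within 1000 bp of the centre of a peak outside introns. Of the same 200, 116 (58.0%, 51.1 to 64.6) came before every other peak of the gene, 51 came after them and 33 lay between them. An intron cannot lie after the last exon of its transcript, and no matching order was computed for coding-exon peaks.

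Along the gene, intron peaks were spread widely, without the rise toward the 3' end seen for coding-exon and 3'UTR peaks. A 3'UTR lies at the end of its transcript, and an intron cannot lie in the last exon. Part of this contrast therefore follows from the classes themselves, and how much was not tested. The distance from the transcript start was divided by the length of the gene in RefSeq (GRCm38), which could be done for 672 intron peaks. Where the listed transcript starts inside the gene, this ratio differs from the place in the gene. The median intron peak lay at 45.1% of the gene length (41.1 to 48.7), against 74.4% (72.5 to 76.3) for coding-exon peaks and 93.7% (93.0 to 94.2) for 3'UTR peaks. In the last 10% of the gene lay 42 intron peaks (6.25%), 758 coding-exon peaks (26.7%) and 889 3'UTR peaks (63.8%). The intron share was lower than the coding-exon share by 20.5 points, with a Newcombe interval of the intron minus coding difference from -22.8 to -17.8. Without Ahnak the median was 46.2% and the difference was -20.3 points (-22.6 to -17.6). In the first 10% lay 60 intron peaks (8.93%) and 6.91% of coding-exon peaks. The interval of that difference, -0.15 to 4.57 points, included 0. Without Ahnak the difference was 2.26 points, and its interval, 0.048 to 4.87, excluded 0. For 21 intron peaks (3.12%) the listed distance exceeded the gene length, compared with 2 coding-exon peaks.

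**Figure D1:**
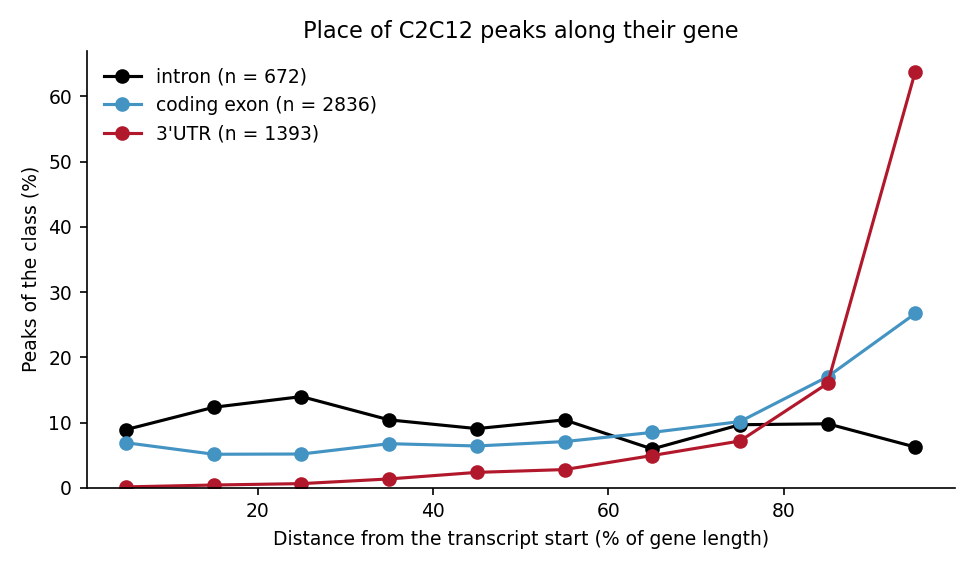
Share of the peaks of each class (vertical axis, %) in each 10% of the gene length from the transcript start (horizontal axis, %), for intron, coding-exon and 3'UTR peaks of C2C12. The intron line stays between 5.95% and 14.0% in every bin, while 63.8% of 3'UTR peaks and 26.7% of coding-exon peaks fall in the last bin.

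In base pairs, the median intron peak lay 14363 bp from the start, with quartiles of 4122 and 39809 bp. The 3 nearest were in 4930579G18Rik (86 bp), Tceb2 (115 bp), which encodes elongin B, and Pbdc1 (123 bp). Beyond 100000 bp lay 75 intron peaks (11.1%) and 8.18% of coding-exon peaks, a difference of 2.93 points (0.53 to 5.69). The share of 3'UTR peaks there was 11.03%, and the difference of 0.08 points (-2.69 to 3.09) included 0. The farthest 5 were all in Gm14405, at 1159730 to 1195143 bp, and the starts of 2 other listed transcripts lay between those peaks and the start assigned to them. The next were in Pard3b, a polarity protein gene (901964 bp), and Astn2, an astrotactin gene (790402 bp), with no other listed start in between.

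Intron peaks were mostly short, with a few very long ones. Their median length was 232 bp (227 to 238), against 304 bp (298 to 311) in coding exons, 290 bp (284 to 300) in 3'UTRs and 239 bp (231 to 248) in 5'UTRs. The shortest length in the list, 199 bp, was shared by 84 intron peaks (12.4%) and 119 coding-exon peaks (4.16%), a difference of 8.28 points (5.87 to 11.1). The difference from 5'UTR peaks was 2.21 points and its interval, -2.11 to 6.09, included 0. At the other end, 19 intron peaks (2.81%) were 1000 bp or longer, against 49 coding-exon peaks (1.71%) and 14 3'UTR peaks (0.996%). The intron share exceeded the 3'UTR share by 1.82 points (0.61 to 3.41), while the interval of its difference from the coding-exon share, -0.04 to 2.70, included 0. Without Ahnak, the median was 230 bp, the share at 199 bp was 12.8% and the share of 1000 bp or longer was 2.59%.

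**Figure D2:**
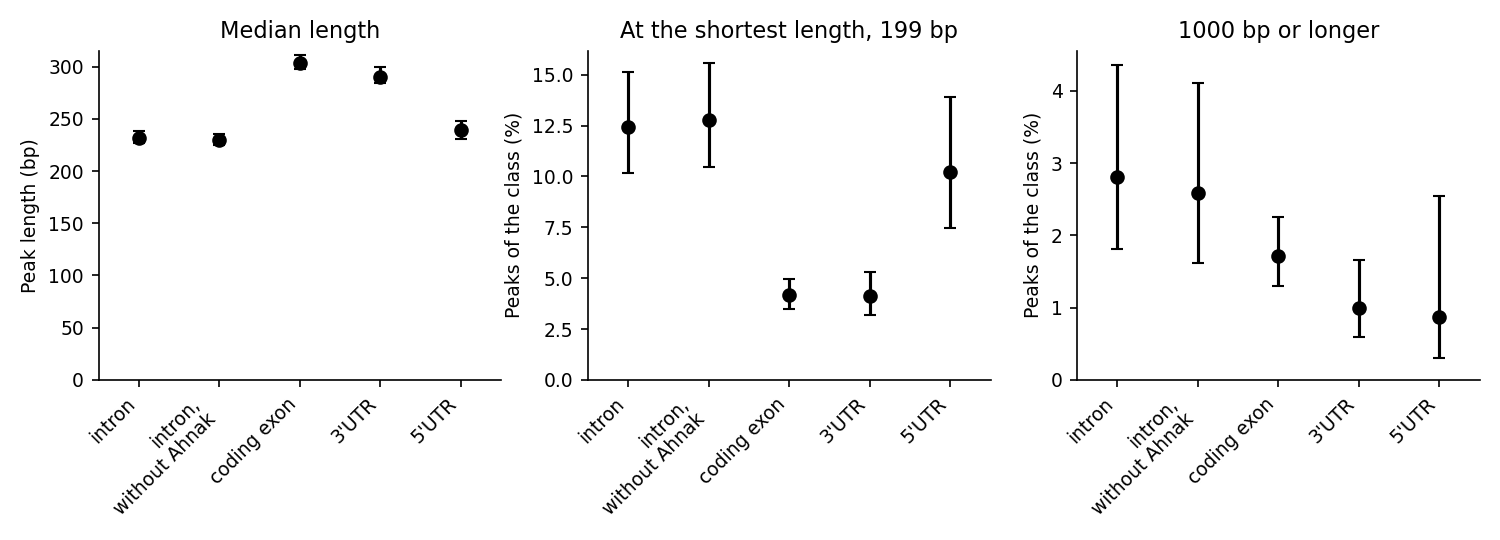
Median peak length in bp (left), share of peaks at the shortest length of 199 bp (middle, %) and share of peaks of 1000 bp or longer (right, %) for intron peaks, intron peaks without Ahnak, and coding-exon, 3'UTR and 5'UTR peaks; points are values and bars their 95% intervals. Intron peaks had a median of 232 bp (230 bp without Ahnak), near the 239 bp of 5'UTR peaks. At the shortest length were 12.4% of intron peaks, 10.2% of 5'UTR peaks and 4.16% of coding-exon peaks.

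Every long intron peak outside Ahnak lay in 10 genes with broad clusters of peaks. Among the 675 intron peaks, 221 (32.7%, 29.3 to 36.4) had another intron peak of the same gene within 5000 bp, centre to centre. The matching share was not computed for peaks of other classes, so this one has no background to be read against. Chains of at least 3 such peaks, called runs here, were found in 30 genes and held 141 peaks. In 10 of these, the peaks of the run covered 3572 to 4795 bp of sequence within a span of 4472 to 8691 bp. Outside these 10 genes and Ahnak, the 19 other runs covered 609 to 1837 bp, and their longest peak was 592 bp. The 10 broad runs held 51 peaks, 7.56% of all intron peaks, and 19.3% of the base pairs that intron peaks covered. All 17 intron peaks of 1000 bp or longer outside Ahnak belonged to them. The limit of 3500 bp of covered sequence that separates the 10 runs was set after the values were seen, and no test was made on them. Such a limit favours runs with long peaks, so the placing of the long peaks follows in part from it. Outside introns, 1 of 126 runs reached this limit, with 6 peaks and 9205 bp in Plec, which encodes the cytolinker plectin.

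The 10 genes lie on 6 chromosomes. They are Gm7854 and 4930578N18Rik, which are noncoding, Galnt11, a glycosyltransferase that starts O-linked glycans, Abr, Fam73a, now named Miga1, a mitochondrial outer membrane protein, Ppat, which catalyses the committed step of purine synthesis, Ctse, the protease cathepsin E, Rsrc1, an arginine- and serine-rich protein, Plcd3, a phospholipase C, and Snx6, a sorting nexin. Abr had 1 peak in its 3'UTR, and the other 9 genes had no peak outside the run. None of the 10 was in the muscle table, which with 10 genes allows a share of up to 30% (3 counts of the total). The share was 25.0% over all genes with an intron peak and 17.2% over those with intron peaks only, so a lower share for these 10 genes was not detectable.

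Read in ascending chromosome position, some of the broad runs had alike layouts. Gm7854 and Galnt11 lie on chromosome 5 and Fam73a on chromosome 3. In Gm7854 the lengths of the 5 peaks were 390, 410, 1748, 1900 and 347 bp, starting 0, 2243, 2849, 4793 and 8299 bp from the first base of the run. In Galnt11 they were 404, 432, 1532, 2019 and 292 bp, starting at 0, 2281, 3137, 4759 and 7780 bp. In Fam73a they were 210, 385, 1721, 1887 and 199 bp, starting at 0, 2083, 2695, 4656 and 8321 bp. In these genes a short peak, a wide gap and a second short peak were followed by 2 long peaks in direct succession, and a last short peak stood alone.

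Abr and Ctse followed the same order with 1 of the long stretches divided. Abr had peaks of 415, 362, 1500, 1037, 762 and 382 bp, starting at 0, 2339, 3148, 4867, 5993 and 8309 bp. Ctse had peaks of 223, 376, 941, 602, 1896 and 200 bp, starting at 0, 2112, 2771, 3886, 4668 and 7744 bp. Rsrc1 held the longest intron peak of the list, 2212 bp, in a run that began with the same gap. The spacing of the first 2 centres was 2170 to 2313 bp in these 6 genes, which were picked by it after the values were seen. Of the 19 smaller runs, 2, in Chd9 and Myh9, also had a first spacing of 2000 to 2500 bp, at 2197 and 2153 bp. Both gene strands occurred, with 4 of the 10 genes on the plus strand and 6 on the minus strand.

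The other 4 broad runs were shorter and denser. Ppat had peaks of 462, 1437, 2174 and 289 bp within 5504 bp, and the peaks filled 79.3% of it. Plcd3 had peaks of 387, 1396, 1072 and 772 bp within 4472 bp, filling 81.1%. Snx6 and 4930578N18Rik had 5 and 6 peaks within 4659 and 5334 bp. In Plcd3 and Snx6 a peak of 387 or 470 bp was followed by a long peak that began 961 or 795 bp from the first base. As listed, the runs are at chr5:43599291-43607937 for Gm7854, chr5:24736570-24744642 for Galnt11 and chr3:66900273-66907479 for Rsrc1. The submitters' processing notes name mm10, but only 507 of 5383 peaks (9.42%) of the list lay in the span of their gene on that build (GRCm38), so the positions are on another build, which was not determined. In the muscle table the share was 98.1%. No sequence under the peaks was read for that reason.

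**Figure D3:**
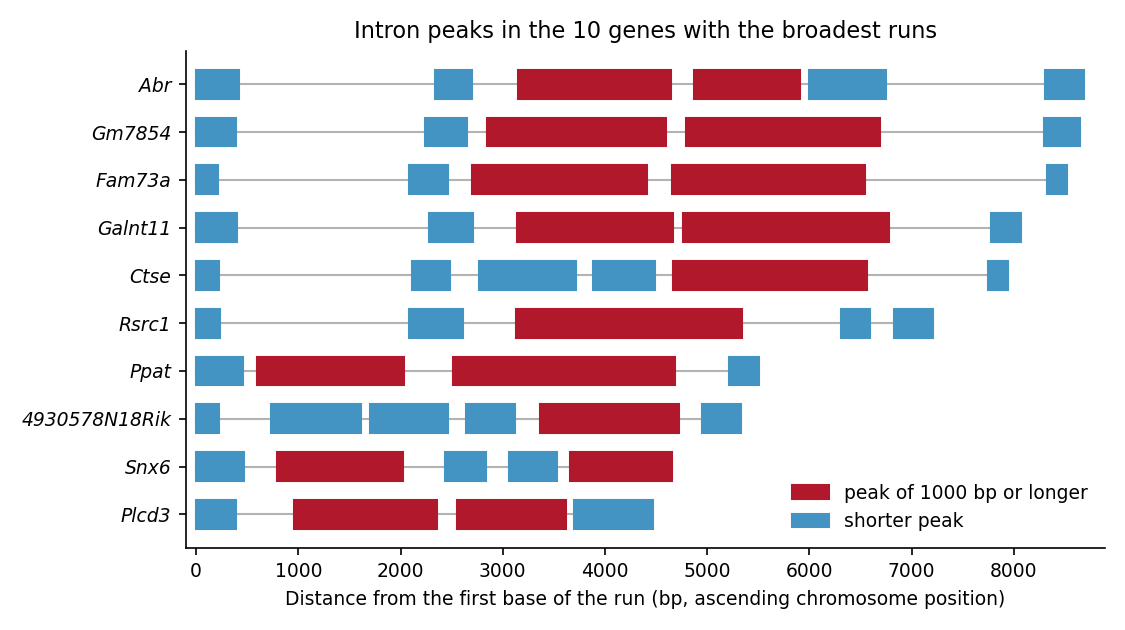
Intron peaks of the 10 genes with the broadest runs, each drawn to scale from the first base of its run (horizontal axis, bp, in ascending chromosome position); red boxes are peaks of 1000 bp or longer and blue boxes are shorter. The upper 6 genes share a gap of about the same width after the first peak, with centres 2170 to 2313 bp apart, and the lower 4 runs span 4472 to 5504 bp.

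Ahnak, which encodes a giant scaffold protein of the cell cortex that takes part in membrane repair, had 18 intron peaks and no peak of another class. They lay at chr19:9076146-9092686 as listed, 12573 to 28505 bp from the start of NM_001039959, and covered 9445 bp (57.1%) of a span of 16540 bp. Their lengths ran from 235 to 1760 bp with a median of 397 bp. Gaps between neighbouring peaks were 97 to 1594 bp. RefSeq lists 10 transcripts of the gene, and the list assigned every peak to 1 of them. The muscle table held 16 Ahnak peaks and placed 15 in coding sequence (CDS) and 1 in an exon. Those covered 7988 bp (50.7%) of a span of 15758 bp, of about the same size as the C2C12 span. The authors' fold enrichment of IP over input for the muscle peaks was 1.15 to 12.5, with a median of 2.87, and 11 of the 16 held a GGAC site, the core of the m6A consensus. The classes of the lists therefore differ for this gene, and the muscle table has no intron class at all (0 of its peaks).

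**Figure D4:**
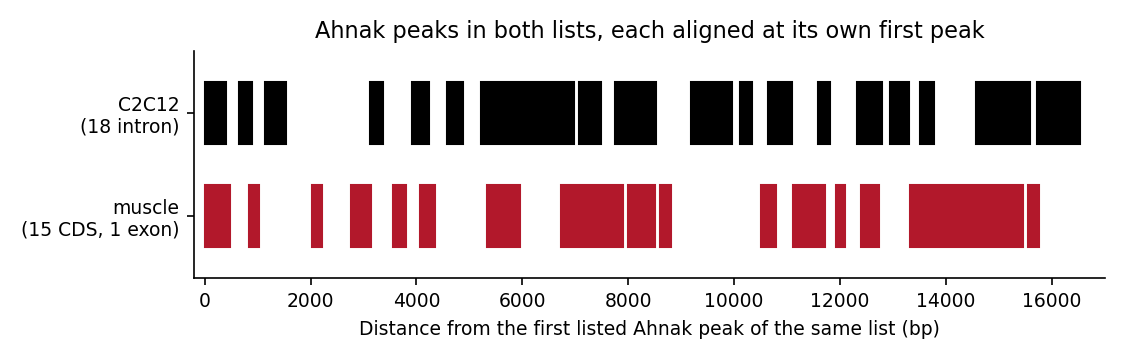
Ahnak peaks in C2C12 (18, intron) and in muscle (16, of which 15 CDS and 1 exon), each list drawn to scale from its own first peak (horizontal axis, bp). The peaks span 16540 bp in C2C12 and 15758 bp in muscle; single peaks are not matched between the lists.

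Of the genes with smaller runs, Grk5, a kinase of G protein-coupled receptors, had the most, with 7 intron peaks of 199 to 427 bp, all 36429 to 41821 bp from the start, and in muscle a single 5'UTR peak. Coro2b, a coronin that binds actin, had 6 of 199 to 267 bp and no other peak. Myh9, the heavy chain of nonmuscle myosin IIA, had 5 intron peaks of 202 to 267 bp at 82.6% to 92.2% of the gene length, beside 2 coding-exon peaks and 1 5'UTR peak. Chd9, a chromodomain helicase, had 5 intron peaks and 1 coding-exon peak, and 1 CDS peak in muscle with a fold enrichment of 176. Macf1, a crosslinker of actin and microtubules, had 3 intron peaks of 243 to 343 bp, 272687 to 275262 bp from the start, and 5 CDS peaks in muscle.

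Other genes with at least 3 intron peaks were Cald1 (caldesmon), Pkm (pyruvate kinase), Pcx (pyruvate carboxylase), Camk2b, Kif1b, Pik3c2a, Ankrd50, Masp1, Mrps6, Cmss1, Ralgps1, Fbxl13, Pdap1, Gm13247, Gm20604 and Tsix. Pkm had peaks of 208 to 294 bp and Cald1 of 202 to 368 bp, and each had 1 peak outside introns. Pcx had 3 peaks of 392 to 587 bp at 91.7% to 93.2% of the gene length. On chromosome 2, smaller runs in Gm14391, Gm14405 and 0610010B08Rik lay close together. Their neighbouring centres were 535, 528 and 539 bp apart at the low end of the runs. This region holds closely related gene copies, so the assignment of reads among them is uncertain.

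Intron peaks were counted in 10 fixed lists of genes and are read against the 12.7% of all genes in the C2C12 list that had one. Of 15 sarcomere and actomyosin genes in the C2C12 list, 6 (40.0%) had an intron peak, namely Myh9, Macf1, the tropomyosins Tpm1, Tpm3 and Tpm4, and the cardiac troponin T gene Tnnt2. Tpm1 had 2 intron peaks of 210 bp each, at 1230 and 15153 bp from the start, Tpm4 had 2 of 205 and 212 bp, and Tpm3 and Tnnt2 had 1 each of 219 and 210 bp. These peaks of 205 to 219 bp were near the shortest length of the list.

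Of 26 splicing and RNA-binding genes in the list, 9 (34.6%) had an intron peak, which were Srsf11, Hnrnpa2b1, Hnrnpk, Hnrnpm, Hnrnpu, Mbnl1, Tardbp, Sf1 and Ddx17. Each had 1. The longest was that of Tardbp, which encodes TDP-43, with 536 bp at 65.7% of the gene length, and in muscle Tardbp had 1 3'UTR peak with a fold enrichment of 19.3. Mbnl1, a regulator of splicing in muscle development, had an intron peak of 358 bp in C2C12 and a 5'UTR and a 3'UTR peak in muscle. Srsf11, a serine- and arginine-rich splicing factor, had one of 217 bp at 94.7% of the gene length. Hnrnpa2b1 and Hnrnpk also had a 5'UTR peak each in C2C12.

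Of 12 m6A writer, reader and eraser genes in the list, 2 (16.7%) had an intron peak, close to the 12.7% of all genes. Wtap, the regulatory subunit of the methyltransferase complex, had 1 of 239 bp beside 2 coding-exon peaks, and Cbll1, which encodes the complex member Hakai, had 1 of 239 bp alone. Of 24 matrix and adhesion genes, 5 (20.8%) had intron peaks, namely the collagens Col3a1, Col5a1 and Col6a3, the fibronectin gene Fn1, and Sparc, a matrix-binding glycoprotein. Col3a1 had 2 of 227 and 199 bp and Sparc had 2 of 199 and 204 bp, with no other peaks in either gene. Of 5 membrane repair genes, 3 had intron peaks, namely Ahnak, S100a10, whose product binds the Ahnak protein, and S100a11, and the latter 2 had 1 each.

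Of 14 Notch pathway genes in the list, 1 (7.14%) had an intron peak, against 12.7% of all genes. It was Spen, a corepressor of Notch target genes, with 562 bp beside 6 other peaks. Of 21 chromatin genes, 1 (4.76%), Chd9, had any. No intron peak was listed for the 10 cleavage and polyadenylation genes, the 5 long noncoding RNA genes of the fixed list or the 6 myogenic and MEF2 factors that had a peak. At 12.7% of all genes, counts of 0 or 1 in lists of this size are near the background. The lists were not tested against other genes.

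Genes with intron peaks only were seldom among the genes listed in muscle. The muscle table holds peaks from the comparison of METTL3 cKO and CTL at day 2 after CTX and was joined by gene. A gene absent from it is not shown to lack m6A in muscle. The table has no intron class (0 of its peaks), so a gene enters it only through a peak of another class. Genes with intron peaks only have no such peak in C2C12, and how far this sets the differences below was not tested. Of the 348 genes with intron peaks only, 60 (17.2%, 13.6 to 21.6) had a muscle peak, against 1470 of 3465 genes without an intron peak (42.4%, 40.8 to 44.1), a difference of -25.2 points (-29.1 to -20.6). Genes with both kinds of peak stood at 42.0% (66 of 157), a difference of -0.39 points whose interval, -8.01 to 7.60, included 0. For all 505 genes the share was 25.0%, and 24.8% without Ahnak.

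For genes with intron peaks only, the gap was also present at matched numbers of listed peaks and in each of 4 classes of gene length. Each class held close to the same number of genes. Among genes with 1 listed peak, 17.7% (52 of 293) of those with an intron peak and 38.5% (1023 of 2654) of the others were in the muscle table, a difference of -20.8 points (-25.2 to -15.7). Among genes with 2 listed peaks, those with both kinds stood at 35.9% (33 of 92), against 52.7% (325 of 617) without an intron peak. That difference was -16.8 points (-26.7 to -5.88), but numbers of peaks outside introns were not matched in it. Genes of both kinds with 2 listed peaks have 1 peak outside introns. The interval of their share, 26.8 to 46.1%, included the 38.5% of genes with 1 listed peak and no intron peak. With 3 or more listed peaks, the difference for genes with both kinds was -12.1 points, and its interval, -25.6 to 1.57, included 0. From the class of shortest to that of longest genes, the shares for genes with intron peaks only were 7.59%, 21.5%, 17.7% and 21.3%. Those for genes without an intron peak were 38.4%, 38.2%, 43.3% and 52.0%, and the interval of the difference excluded 0 in all 4 classes. The smallest difference was -16.7 points (-25.0 to -5.98), in the class next to the shortest. Neither list holds expression values.

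**Figure D5:**
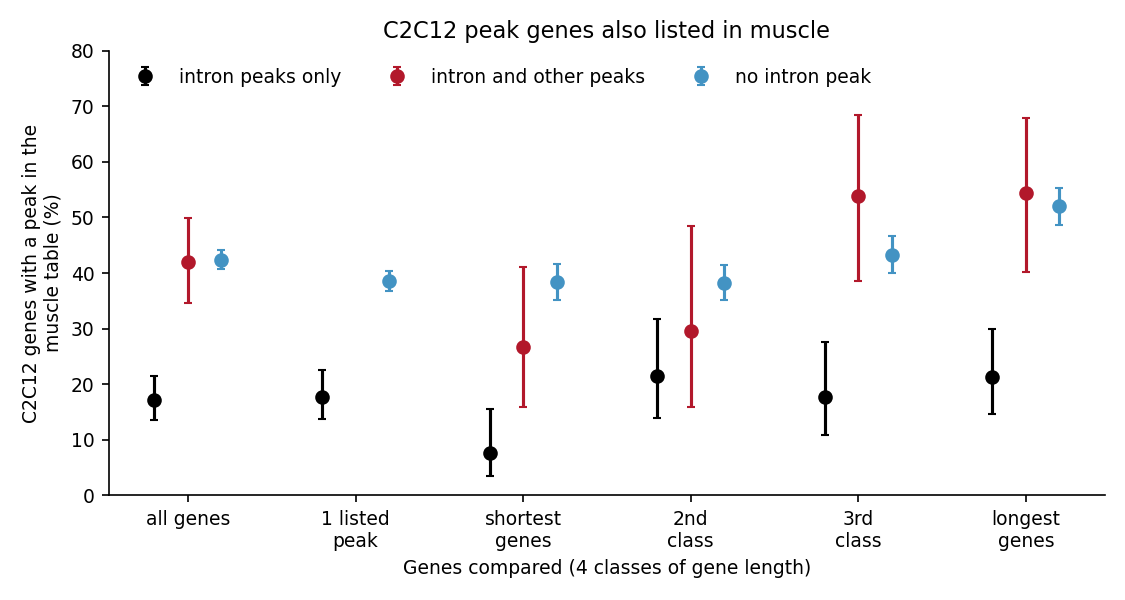
Share of C2C12 peak genes that also have a peak in the muscle table (vertical axis, %), for genes with intron peaks only, with intron and other peaks, and with no intron peak, over all genes, genes with 1 listed peak and 4 classes of gene length (horizontal axis); bars are 95% Wilson intervals. Genes with intron peaks only stand at 7.59% to 21.5%, below genes without an intron peak in every set; no gene with 1 peak can have both kinds.

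Where genes with an intron peak did appear in muscle, the peaks there were listed with lower fold enrichment. Their 187 muscle peaks had a median fold enrichment of 8.25 (7.14 to 11.6), against 22.0 (19.2 to 24.2) for the 2087 muscle peaks of genes without an intron peak. Without Ahnak the median was 9.78 (7.62 to 14.4), and for genes with intron peaks only it was 7.20 (5.70 to 9.15). A GGAC site was listed in 69.0% (62.0 to 75.2) of these peaks and in 78.0% (76.1 to 79.7) of those of the other genes. Of the peaks of the former and the latter genes, 44.4% and 44.8% were in the 3'UTR and 36.9% and 38.5% in the CDS. Without Ahnak, the former genes had 48.5% in the 3'UTR and 31.6% in the CDS.

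Genes with intron peaks held another protein-coding gene within their span more often than genes without one. By RefSeq spans on GRCm38, this was so for 33 of 345 genes with intron peaks only (9.57%, 6.89 to 13.1). The share was 49 of 3428 for genes without an intron peak (1.43%, 1.08 to 1.88), a difference of 8.14 points (5.42 to 11.7). Genes with both kinds of peak stood at 8 of 157 (5.10%), a difference of 3.67 points (1.13 to 8.32). In the class of longest genes, 20.4% of genes with intron peaks only and 3.14% of genes without an intron peak held one. The difference was 17.2 points (10.6 to 25.8). In the class of shortest genes the shares were 1.27% and 0.349%, and the interval of the difference, -0.32 to 6.48 points, included 0. For genes with both kinds of peak, the interval included 0 in the shortest (-1.02 to 7.52) and the longest class (-1.12 to 14.4). In the classes between, the differences were 6.49 points (1.07 to 22.5) and 6.30 points (1.16 to 18.9).

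Over all genes with an intron peak, 41 were such hosts, with 50 enclosed genes and 66 intron peaks. Of the 41 hosts, 10 were in the muscle table themselves, beside 25.0% of all genes with an intron peak. For 15 of the 41 an enclosed gene was in it. No share was computed for the enclosed genes of other hosts, so that count has no background to be read against. For 1 host, Gm20604, an enclosed gene, Moap1, was also in the C2C12 list. Cmss1, with 4 intron peaks and no muscle peak, encloses Filip1l, a filamin-interacting protein gene with a muscle peak of fold enrichment 69.9. Ralgps1, with 5 intron peaks and no muscle peak, encloses Angptl2, which encodes a secreted angiopoietin-like protein and had a muscle peak of 3.08. Itga1, the integrin alpha 1 gene, with 1 intron peak, encloses Pelo, a ribosome rescue factor gene with a muscle peak of 163. Astn2 encloses Trim32, a ubiquitin ligase gene mutated in a limb girdle muscular dystrophy, with 2 muscle peaks of up to 51.6. The intron peaks were not placed inside or outside the enclosed genes, because the positions of the list are on another build.

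On the X chromosome, Tsix, the antisense partner of Xist, had 3 intron peaks of 199 to 399 bp and 1 5'UTR peak in C2C12, and Xist had none. In muscle the table listed 5 peaks for Xist with a fold enrichment of up to 195 and 1 for Tsix at 66.8. Tsix and Xist overlap on opposite strands, and whether peaks were assigned by strand is not stated.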

How the data were processed

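The authors made m6A MeRIP-Seq libraries with a stranded kit from poly(A) RNA fragmented with ZnCl2, using 2 IP and 1 input library for C2C12. The submitters' processing notes name TopHat, MACS2 and mm10, and versions are not given in the sources used here. How the IP libraries were combined is not stated. The authors deposited 1 C2C12 list of positions, classes, transcripts and distances in bp, and 1 muscle table whose fold enrichment is a ratio of IP over input. Columns of the authors' comparison of genotypes in muscle (log2 fold change, p and FDR) were not used. Columns of values of single samples that were left out numbered 0.

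Peaks were intron peaks if their class names an intron. Length is end minus start. The C2C12 transcripts of 5383 of 5433 peaks, and the genes of 5216 of 5412 muscle peaks (96.4%), were found in RefSeq GRCm38, used for names, gene lengths and enclosed genes. Runs joined intron peaks of a gene with centres up to 5000 bp apart, with at least 3 peaks. Shares have Wilson intervals, their differences Newcombe intervals and medians order-statistic intervals (95%). Interval and run functions were tested on simulated data. Tools were Python 3.11.15, pandas 2.3.3, numpy 2.4.6, scipy 1.17.1 and matplotlib 3.10.9. With no values per library, no tests between samples were made.

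Genes named were Ahnak, genes with 3 or more intron peaks, those of the 3 longest, the 3 nearest and the 3 farthest intron peaks, and genes of the fixed lists with an intron peak. The myoblast markers came from a list of their own. Plec, the distant Pard3b and Astn2, the hosts with 1 intron peak, the enclosed genes and Xist were named after their values were seen. The members and lists were chosen with earlier results of these data known.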

Additional observations from a re-analysis of the deposited data

How the results depend on the processing

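The intron share, median length, median length difference, share of genes with other peaks, share with a neighbouring intron peak and muscle difference were recomputed in 21 alternative values, of which 17 stayed within the interval of the reported value or, for the muscle difference, kept its direction with an interval that excluded 0. The other 4 lay outside the interval of the reported value, and none changed sign. Among peaks at or above the median length of the list, the intron share was 7.67%. With 3'UTR peaks in place of coding-exon peaks, the intron median was 58 bp lower (difference -58). Within 1000 bp, 18.2% of intron peaks had another of the gene, and without the 10 genes with broad runs, chosen after seeing the data, 27.2% had one within 5000 bp. Without Ahnak the muscle difference was -17.6 points against -17.5.

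No paired analysis was possible because the list gives no values per library. For the same reason leaving out a library was not run. First and last introns and exons of other transcripts were not run, since no exon annotation of the list's build was used. Depth is unknown, so absence of a peak does not show absence of m6A.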
